A study of Drosophila melanogaster with 23 samples.

Results

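Males and females kept at 28 °C were compared by RNA-seq of whole bodies. The 7 libraries were chosen by their labels as the 3 male and 4 female libraries at 28 °C, of 23 libraries in the series. Each library came from pooled virgin w1118 flies, a laboratory stock that carries a mutation of the white eye pigment gene, and both sexes carried it. Flies were sorted by sex after eclosion, moved to their temperature as young adults, and frozen at 35 days of age at 28 °C. The remaining libraries came from flies of the same stock at 18 and 24 °C, 4 for each sex and temperature, taken at 45 days. Temperature and age at sampling therefore change together in any comparison of 28 °C with the cooler temperatures, while the sexes at 28 °C had the same age. The labels do not say whether libraries of a group came from separate cultures, so p-values measure the spread between these samples.

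In Drosophila melanogaster, sex is set in each cell by the splicing cascade from Sxl through tra to dsx and fru, and males raise transcription of their single X chromosome with the MSL complex and the roX RNAs. The adult female carries ovaries with germline, nurse and follicle cells and makes yolk in the fat body, while the male carries testes, accessory glands and an ejaculatory duct. A library of whole bodies adds all of these organs to the shared soma. In such bulk samples, fewer cells of a type and less RNA per cell cannot be told apart.

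Counts in the deposited table summed to 21998441 to 23194619 in female libraries and 19898081 to 20119003 in male libraries, so this total and sex change together. Genes without a count in some library may be missing from the table, so the sums need not reflect sequencing depth. Levels are given in CPM, which scales counts to the size of the library. Differences are log2 of male over female ± the standard error. Adjusted p-values are from edgeR (quasi-likelihood, Benjamini-Hochberg over all features tested). A feature was called at an adjusted p under 0.01. Female replicate 1 stood apart from the other females, with log2 correlations of 0.980 to 0.986 against up to 0.996 between females 2 and 3. Its share of ovary germline transcripts was 0.868% of counts, against 0.620% to 0.660% in the other females. Without that library 6733 features were called in place of 6956. The labels were checked with defining markers: the summed level of 6 ovary germline markers was 1446 to 2053 CPM in females and 426 to 466 CPM in males, where orb made up most of it. None of the 6 testis markers or 5 accessory gland markers was in the table, and those genes were not analysed here.

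The sexes differed in most of the transcriptome. Of 9698 tested features, 6956 were called (71.7%), 3402 higher in males (35.1%) and 3554 higher in females (36.6%). The middle of the distribution was near 0, with a median log2 difference of 0.01, quartiles of -0.70 and 0.81, and a 5th and 95th percentile of -2.07 and 1.85. Differences over 1 on the log2 scale were called in 1963 features toward males and 1704 toward females, and differences over 4 in 94 and 76. Values of the 3 male and 4 female libraries did not overlap in 7631 features (78.7%), of which 6862 were also called (70.8% of those tested). Every later count of members is to be read against these shares.

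**Figure D1:**
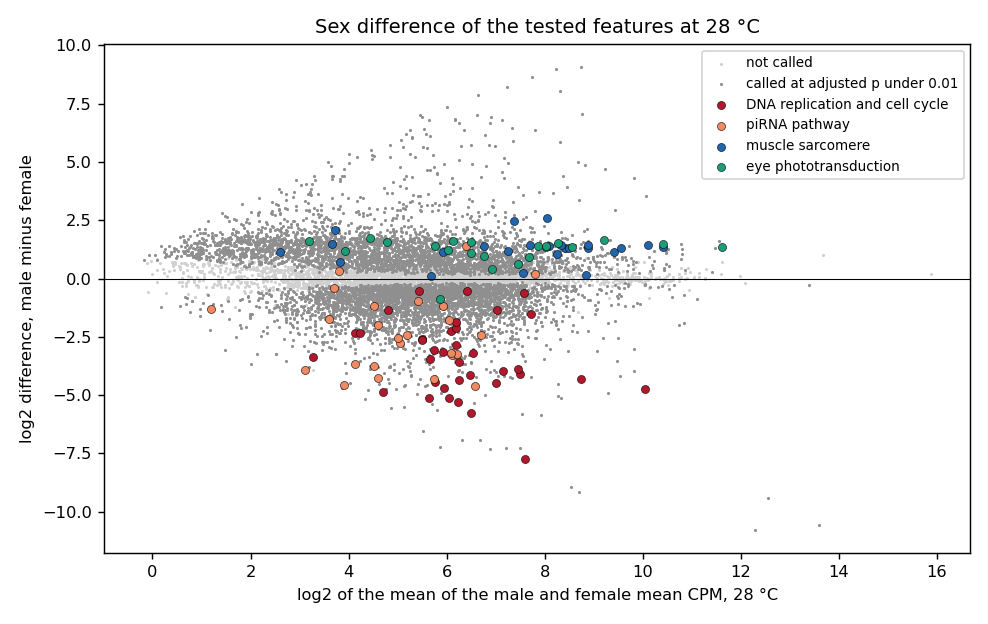
Each point is 1 of the 9698 tested features, with the log2 of its mean CPM at 28 °C on the x axis and the log2 difference male minus female on the y axis. Dark grey marks the 6956 called features. Cell cycle genes (red) and piRNA genes (orange) lay below 0 with medians of -3.40 and -2.44, and muscle (blue) and eye genes (green) lay above 0 with medians of 1.32 and 1.37.

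A feature was tested where no library was under 0.5 CPM, and this removed 1454 of 11152. Among those removed, 384 were at or over the minimum in every male and under it in every female library at 28 °C, and 46 showed the reverse. With every feature kept, 7938 of 11152 were called (71.2%), 3916 higher in males (35.1%) and 4022 in females (36.1%), and 452 features were over 4 on the log2 scale toward males against 140 toward females. The deposited table held no value of 0, and its smallest value was 0.09 counts, so genes without any count in a library may not be in it. For genes the filter removed, differences are from the fit with every feature kept, and ratios are of pooled counts with exact Poisson 95% intervals that cover counting error only.

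The 3 yolk protein genes had the largest differences toward females among tested features. Their products are taken up by the oocyte through yl, the yolk receptor. Yp1 lay at 5.59, 8.89 and 34.4 CPM in the males and at 22879, 25651, 23495 and 27484 CPM in the females, a log2 difference of -10.57 ± 0.63 (edgeR adjusted p = 1.8e-12). Yp2 lay at 1.34 to 13.2 CPM in males and 9163 to 11224 CPM in females, a difference of -10.77 ± 0.68. Male replicate 3 had the highest male values of both genes, and without it the differences were -11.74 for Yp1 and -12.35 for Yp2. Yp3 was at 14.9, 15.6 and 23.1 CPM in males and 9946 to 14758 CPM in females (-9.40 ± 0.37). Yp1 and Yp2 are neighbours on the X chromosome (Yp2 at 10050951 to 10052636, Yp1 at 10053811 to 10055498 in dm6), and Yp3 lies apart at 13759546 to 13761547. Together the yolk genes took 4.34% to 4.95% of all counts in each female library and 0.00204% to 0.00693% in each male library. An exact two-sided permutation test over the 7 libraries gave p = 0.0571 for this share, which is the smallest p that 35 splits of 3 against 4 libraries allow.

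Transcripts of the oocyte followed. The receptor yl lay at 1.27 to 1.61 CPM in males against 1005, 788, 810.5 and 716 CPM in females (-9.15 ± 0.24, edgeR adjusted p = 1.2e-17). dhd, a thioredoxin of the female germline, lay at 1.12 to 1.80 CPM against 627 to 904 CPM (-8.93 ± 0.23). nanos, a translational repressor that sets the posterior of the embryo, lay at 1.34, 2.18 and 2.26 CPM in males and 372, 275, 278 and 253 CPM in females (-7.25 ± 0.19). swa and otu, needed for the placing of maternal RNA and for oogenesis, differed by -7.31 ± 0.18 and -7.25 ± 0.19. In each of these genes the groups were far apart and female replicate 1 was the highest library. bcd, the anterior determinant, lay at 0.559 to 1.13 CPM in males and 104 to 144 CPM in females (-7.23 ± 0.32).

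Among genes that the filter removed, the highest in females were Lsp2, osk, Pxt, Vm34Ca and alphaTub67C. osk, which assembles the pole plasm, lay at 0.558, 0.577 and 1.07 CPM in males and 859, 681, 665 and 609 CPM in females, a ratio of 900.1 (672.7 to 1234). alphaTub67C, the maternal alpha-tubulin, had a ratio of 768.6 (512.2 to 1212) and Pxt, a peroxidase needed in the ovary, a ratio of 613.9 (452.5 to 855.5). The helicase me31B, which represses maternal RNA and is also used elsewhere, was at 111 to 114 CPM in males and 1176 to 1558 CPM in females (-3.54 ± 0.10). Of 22 tested members of the ovary germline list, 16 were higher in females and 4 in males, with a median of -3.24.

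The 4 members higher in males were exu, orb, grk and pip. exu lay at 1025, 898 and 1007 CPM in males and 370.02, 302, 281 and 289.8 CPM in females (1.65 ± 0.18, edgeR adjusted p = 3.0e-08). orb, an RNA-binding protein of the germline, was at 399.9 to 451 CPM against 179 to 252 CPM (1.02 ± 0.15), and grk, the TGF-alpha ligand of the oocyte, at 28.8 to 30.4 CPM against 20.8 to 22.5 CPM (0.45 ± 0.09). By annotated span grk and exu overlap Akap200 and galla-1, and whether strand or exons separate their reads was not tested. Of the 152 genes named here, 70 overlap another annotated gene by span.

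Eggshell genes of the follicle cells were at trace levels in males and varied widely between the female libraries. Vm34Ca, a vitelline membrane protein, lay at 0.0962 to 0.146 CPM in males and at 493, 587, 208 and 356 CPM in females. The male value rests on 7 counts in all, and the ratio was 3375 (1638 to 8394). Vm26Ab lay at 0.101 to 0.390 CPM against 259.8, 166, 183 and 334 CPM. dec, which encodes eggshell matrix proteins, lay at 1.12 to 1.99 CPM in males and 477, 484, 220.4 and 367 CPM in females (-7.84 ± 0.81). The chorion gene Cp15 lay at 5.23 to 7.28 CPM in males and 529.6, 98.3, 569 and 262 CPM in females (-5.82 ± 1.21), so females themselves differed several-fold. Cp18 lay at 1.06 to 1.22 CPM in males and 68.4, 73.8, 329 and 183 CPM in females. yellow-g lay at 52.8, 87.1 and 87.7 CPM in 3 females and at 0.894 CPM in the fourth, inside the male range of 0.644 to 1.52 CPM. Cp7Fb was likewise low in female replicate 4, at 0.999 CPM against 45.1, 258 and 41.4 CPM, with 0.195 to 0.558 CPM in males. Its log2 difference of -7.70 was -6.15 without female replicate 2, no longer called, and the call was also lost without any 1 of the males (-7.97 to -7.36). All 3 tested members of this list were higher in females, although the call of yellow-g was lost without any 1 of the males (edgeR adjusted p = 0.012 to 0.015). The spread of single libraries shows in standard errors of 0.81 to 1.55.

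**Figure D2:**
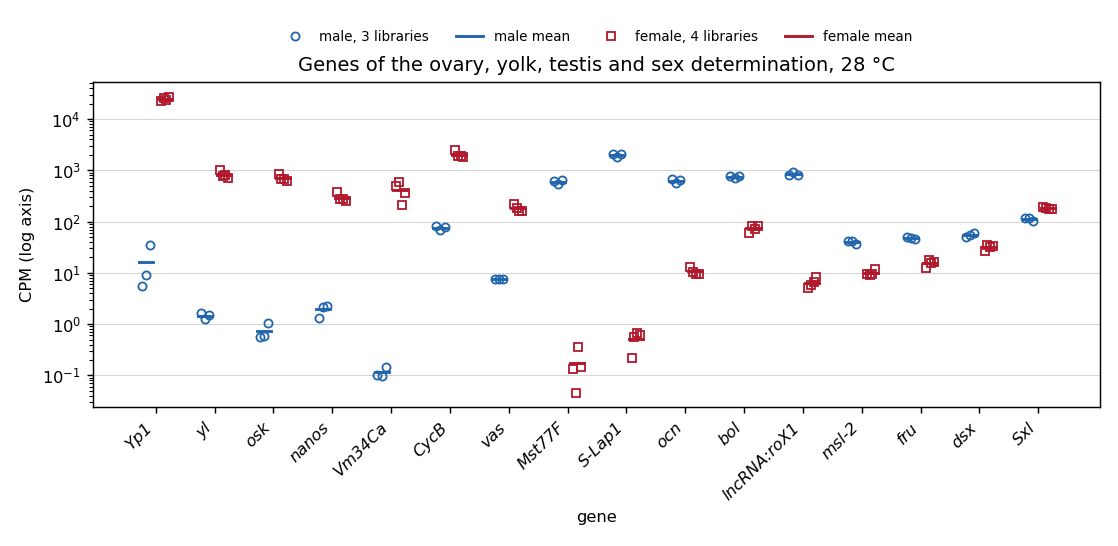
CPM on a log axis of genes of the ovary, yolk, testis, dosage compensation and sex determination, with 1 point for each of the 3 male (circles) and 4 female (squares) libraries at 28 °C and a bar at the mean. The sexes do not overlap in any of the 16 genes. The distance runs from S-Lap1, at 1803 to 2111 CPM in males and 0.221 to 0.680 CPM in females, to Sxl. Sxl lay at 101 to 119.8 CPM in males and 173 to 189 CPM in females.

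Genes that dividing and germline cells use were higher in females as groups. stg, the Cdc25 phosphatase that starts mitosis, lay at 1.34, 1.68 and 2.36 CPM in males and 460.4, 369.5, 363 and 343 CPM in females (-7.73 ± 0.21, edgeR adjusted p = 1.8e-17). Cyclin B, CycB, lay at 69.9 to 81.8 CPM against 2482, 1895, 1913 and 1819 CPM (-4.73 ± 0.21), and the replicative helicase subunit Mcm5 at 3.33 to 4.14 CPM against 121 to 179.5 CPM (-5.28 ± 0.17). Of 36 tested genes of DNA replication and the cell cycle, 35 were higher in females and 0 in males, with a median of -3.40 and a range of -7.73 to -0.54.

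The piRNA pathway, which silences transposons in the germline, moved the same way. vas, a germline helicase, lay at 7.54 to 7.57 CPM in males and 162.1 to 220.4 CPM in females (-4.60 ± 0.13), and piwi at 4.67 to 5.59 CPM against 91.0 to 124 CPM (-4.33 ± 0.14). Of 25 tested members, 21 were higher in females and 1 in males, with a median of -2.44. vas overlaps vig and solo by annotated span, and whether their exons separate the reads was not tested.

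Male reproductive genes mirrored this with traces in females. Mst77F, a protein of sperm chromatin, lay at 633, 529.8 and 648 CPM in males and 0.046 to 0.363 CPM in females, a ratio of 3731 (2262 to 6667). Mst98Ca, a sperm tail protein, had a ratio of 6722 (3931 to 12625). The sperm leucylaminopeptidase S-Lap1 lay at 2089.8, 1803 and 2111 CPM in males and 0.221 to 0.680 CPM in females, a ratio of 4126 (3083 to 5657). Female replicate 3 had the highest female values of these genes. fzo, the mitofusin of spermatids, lay at 107 to 120.4 CPM against 0.310 to 0.571 CPM, a ratio of 260.8 (191.5 to 365).

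Several uncharacterised genes were among the largest differences toward males. CG4836 lay at 3119, 2764 and 2974 CPM in males and 0.285 to 0.907 CPM in females, a ratio of 6225 (4637 to 8567). CG17097, CG5089 and CG9133 had ratios of 6591 (4392 to 10397), 5796 (3668 to 9780) and 6915 (4044 to 12987). Among tested genes, CG31538 lay at 876, 762 and 913 CPM in males and 1.25 to 1.93 CPM in females (9.07 ± 0.29, edgeR adjusted p = 2.0e-16). CG7886, CG7131, CG8136 and CG33791 differed by 9.001 ± 0.38, 8.65 ± 0.28, 8.21 ± 0.25 and 8.06 ± 0.26. CG12229, CG17261, CG13436 and CG43675 differed by 7.87, 7.36, 7.02 and 7.01. The male values of this group were tight, and the female values rest on few counts. CG31538, CG7886, CG7131, CG33791, CG12229, CG13436, CG43675, CG5089 and CG9133 overlap other genes.

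Of the 56 genes of the testis and sperm list, 17 were in the table. Of these, 8 could be tested, 7 of them higher in males and 0 in females, with a median of 3.17. ocn, a testis protein, lay at 682, 555 and 638 CPM in males and 9.41 to 13.2 CPM in females (5.87 ± 0.25). bol, which meiosis in males requires, lay at 717 to 787 CPM against 58.8 to 82.9 CPM (3.36 ± 0.16). The exception was twe, the Cdc25 phosphatase of meiosis in both sexes, at 61.3 to 77.6 CPM in males and 94.5 to 122 CPM in females (-0.56 ± 0.20, edgeR adjusted p = 0.014). It was called higher in females with only the 28 °C libraries (edgeR adjusted p = 0.0020) and with no filter (-0.66, edgeR adjusted p = 0.0051). The 17 genes in the table took 0.593% ± 0.0430 of counts in males (SD, n = 3) and 0.0242% ± 0.00107 in females (SD, n = 4). This share leaves out the absent members of the list. The exact two-sided permutation p was again 0.0571.

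Of 37 accessory gland and ejaculatory duct genes, 7 were in the table. These had a share of 0.0901% of counts in males against 0.0218% in females, with the same exact permutation p of 0.0571. The share is of these genes only and does not measure the full output of the organs. Acp32CD lay at 102, 105 and 119.6 CPM in males and 0.0443 to 0.181 CPM in females, a ratio of 1268 (643.3 to 2936), and Acp24A4 had a ratio of 78.41 (61.4 to 101.8). lectin-46Cb, a seminal fluid lectin, lay at 67.4 to 86.7 CPM against 0.537 to 1.32 CPM (6.37 ± 0.26). Est-6, the esterase of the ejaculatory duct, was also present in females, at 101, 235, 244 and 255 CPM against 357, 499.98 and 549.7 CPM in males (1.17 ± 0.28). Gld, a glucose dehydrogenase of the reproductive tract, lay at 91.6 to 139 CPM in males and 5.97 to 19.0 CPM in females (3.19 ± 0.33). In Est-6 and Gld both sexes had their lowest library in replicate 1.

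Paralogs of housekeeping genes split by sex. Hsp60C lay at 669.5, 581 and 649 CPM in males and 0.0443 to 0.184 CPM in females, a ratio of 4894 (2802 to 9471), while Hsp60A, the mitochondrial chaperonin used throughout the body, was slightly higher in females (-0.45 ± 0.10). COX4L lay at 110.3 to 135 CPM in males and 0.143 to 0.272 CPM in females, a ratio of 667.4 (416.9 to 1146). Its relative COX4, a subunit of cytochrome c oxidase, lay at 286 to 319.8 CPM and 263 to 301 CPM, and its groups overlapped (0.09 ± 0.09). Prosbeta2R2 had a ratio of 313.7 (165.2 to 686), against -0.45 ± 0.09 on the log2 scale for the proteasome subunit Prosbeta2. RpS5b was higher in females, at 212 to 287 CPM against 14.6 to 15.8 CPM (-3.99 ± 0.22), and RpS5a slightly higher in males (0.39 ± 0.10), a difference no longer called without the filter. RpS19b was higher in males, with a ratio of 158.1 (92.43 to 296.8). Reads that paralogs share may have been divided between them by the counting.

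The genes that set sex showed smaller differences at the level of total transcripts, where sex acts by splicing. Sxl was higher in females (-0.68 ± 0.07, edgeR adjusted p = 8.6e-09). tra lay at 11.1 to 13.2 CPM in males and 8.04 to 9.996 CPM in females (0.43 ± 0.17, edgeR adjusted p = 0.029). Its cofactor tra2 was higher in males (0.97 ± 0.10). dsx lay at 50.2, 53.7 and 60.2 CPM in males and 26.8, 35.6, 31.6 and 33.5 CPM in females (0.78 ± 0.12), and fru, which directs male courtship, at 45.7 to 50.8 CPM against 12.2 to 18.0 CPM (1.64 ± 0.14). Of 12 tested members of the sex determination list, which also holds the target sxe2, 5 were higher in males and 6 in females. The targets of the cascade named here, chosen with their values in view, differed more. sxe2 lay at 76.96 to 128 CPM in males and 3.63 to 9.83 CPM in females (4.08 ± 0.31), and the male P450 Cyp4d21 had a ratio of 31.23 (24.84 to 39.84).

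Dosage compensation was marked by lncRNA:roX1, an RNA of the MSL complex that lies on the X chromosome at 3857230 to 3862697. It lay at 826, 929 and 816 CPM in males and 4.98, 5.86, 6.63 and 8.42 CPM in females (7.05 ± 0.18, edgeR adjusted p = 1.2e-17). msl-2, the subunit that Sxl represses in females, lay at 40.9, 41.9 and 37.2 CPM in males and 9.26 to 11.8 CPM in females (2.003 ± 0.10). Other subunits that both sexes express went the other way. msl-1 lay at 27.6 to 29.3 CPM in males and 159 to 211 CPM in females (-2.62 ± 0.13), msl-3 differed by -1.34 ± 0.12 and the acetyltransferase mof by -1.02 ± 0.10. The helicase mle was slightly higher in males (0.31 ± 0.06), a call that was lost with the reference library for scaling that gave its lowest value, 0.16. Clamp, which guides the complex to the X chromosome, was higher in females (-0.83 ± 0.08).

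Genes on the X chromosome had a median of -0.21 over 1576 tested features, against 0.05 over 8051 on the autosomes. Of the X-linked features 26.6% were higher in males and 45.7% in females, against 36.5% and 35.0% on the autosomes. The 80 features of chromosome 4 had a median of 0.39, with 43 higher in males and 29 in females. The X chromosome took 13.7% to 14.4% of counts in males and 19.7% to 20.02% in females (exact permutation p = 0.0571). Without the yolk genes the shares were 13.7% to 14.4% and 15.1% to 15.6%. X-linked genes lay below the autosomes by a median of -0.27 at 28 °C, compared with -0.34 for the sexes at 18 °C and -0.32 for those at 24 °C.

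Genes of the eye, muscle and brain were higher in males. Phototransduction genes took 1.05% ± 0.147 of male counts and 0.421% ± 0.0861 of female counts. ninaE, the main rhodopsin, lay at 4861, 4912 and 3784 CPM in males and 1476, 1756, 1437 and 2363 CPM in females (1.36 ± 0.17, edgeR adjusted p = 2.2e-07). Of 22 tested eye genes 21 were higher in males, with a median of 1.37. The exception was inaE, a lipase that is not limited to the eye, at 40.3 to 41.6 CPM against 71.0 to 83.6 CPM (-0.89 ± 0.07).

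Muscle and brain genes had the same direction and similar medians. Mhc, the muscle myosin heavy chain, lay at 1645, 1638 and 1555 CPM in males and 488, 589.6, 678 and 636 CPM in females (1.43 ± 0.14). The actin Act87E lay at 412 to 493 CPM against 62.7 to 83.7 CPM (2.61 ± 0.15). Of 24 sarcomere genes 22 were higher in males and 0 in females, with a median of 1.32. The synaptic scaffold gene brp lay at 66.1 to 83.7 CPM in males and 16.6 to 25.5 CPM in females (1.85 ± 0.15), and 13 of 13 genes of the head and brain list were higher in males, with a median of 1.48. Neuronal markers summed to 345 to 439 CPM in males and 112 to 175 CPM in females. The sum of ovary germline markers lay in the opposite sense, although orb and grk did not. Gut markers summed to 6133 to 6644 CPM in males and 2297 to 4188 CPM in females. Mal-A1 made up most of the male sum, and its own call depended on single libraries. More gut enzymes were called toward females than toward males. The part of tissue composition in these differences was not tested.

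Clock genes were split. Clk lay at 93.5 to 102 CPM in males and 17.7 to 28.3 CPM in females (1.97 ± 0.13), its partner cyc at 30.5 to 33.3 CPM against 73.2 to 90.7 CPM (-1.32 ± 0.09). The kinase dco was higher in females (-1.85 ± 0.09) and the neuropeptide gene Pdf in males (1.56 ± 0.26). Of 13 clock genes 8 were higher in males and 2 in females.

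**Figure D3:**
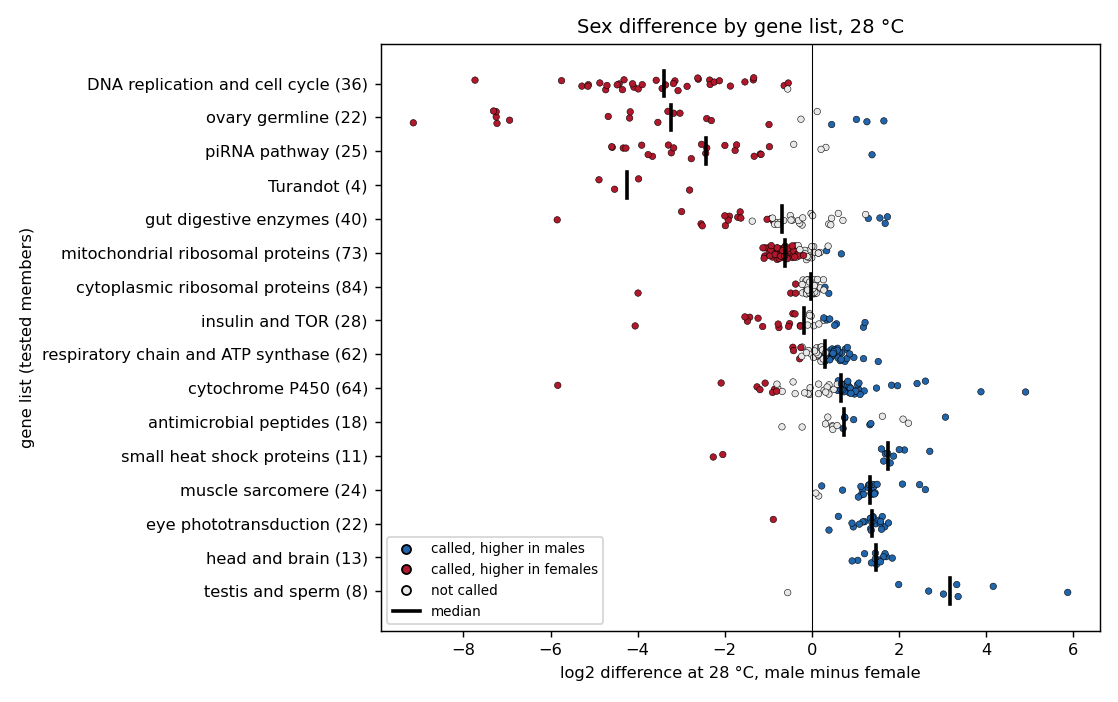
Log2 difference male minus female at 28 °C (x axis) of the tested members of 16 gene lists (rows, number tested in brackets), coloured by call, with a black bar at each median. Cell cycle, ovary germline and piRNA lists lie toward females with medians of -3.40, -3.24 and -2.44, cytoplasmic ribosomal proteins sit around 0 with a median of -0.02, and muscle, eye and head lists lie toward males with medians of 1.32, 1.37 and 1.48.

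Cytoplasmic ribosomal proteins showed almost no sex difference, with 2 of 84 higher in males and 4 in females and a median of -0.02 that changed sign under other scalings. Mitochondrial ribosomal proteins, in contrast, were higher in females in 53 of 73 and in males in 2, with a median of -0.62. mRpL39 lay at 18.7 to 19.8 CPM in males and 39.4 to 47.1 CPM in females (-1.12 ± 0.09), and mRpL51, the largest toward males, at 22.2 to 27.6 CPM against 14.5 to 16.2 CPM (0.68 ± 0.15). Respiratory chain and ATP synthase genes went toward males, 32 of 62 against 4, with a median of 0.30. SdhD, a subunit of succinate dehydrogenase, lay at 110.2 to 124 CPM against 55.8 to 67.2 CPM (0.87 ± 0.10), while the electron carrier Cyt-c-p was higher in females (-0.42 ± 0.10). That last call was lost without male replicate 1, with -0.34. Proteasome genes were higher in females in 6 of 15 and in males in 1. The 46.7% called was under the 71.7% of all tested features, of which 36.6% were higher in females. Of 6 tested tubulins, 3 were higher in males and 2 in females.

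Among detoxification genes, cytochrome P450 genes leaned toward males. Of 64 cytochrome P450 genes 34 were higher in males and 8 in females, with a median of 0.67. Cyp312a1 lay at 163 to 195 CPM in males and 4.41 to 6.92 CPM in females (4.91 ± 0.18), and Cyp4p3 at 49.6 to 75.1 CPM against 7.15 to 12.8 CPM (2.61 ± 0.18). Cyp6a19 was the opposite extreme, at 2.51 to 3.76 CPM in males and 139 to 235 CPM in females (-5.83 ± 0.21), and it overlaps Cyp6a9. Of 28 glutathione transferases 11 were higher in males and 3 in females. The 50% called compares with 71.7% of all tested features, of which 35.1% were higher in males. GstS1, an abundant member in flight muscle, lay at 545 to 655 CPM against 156 to 166 CPM (1.89 ± 0.11). Antioxidant enzymes were split, 5 and 4 of 17, and the extracellular superoxide dismutase Sod3 was higher in females (-2.09 ± 0.09).

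Odorant-binding, cuticle and hydrocarbon genes were called less often than all tested features (45.5%, 60% and 27.3% against 71.7%). Obp56g, a seminal fluid protein of the odorant-binding family, lay at 244 to 305 CPM in males and 5.58 to 10.2 CPM in females (5.16 ± 0.21), and 8 of 22 members of its family were higher in males and 2 in females. Of 15 Cpr cuticle genes 8 were higher in males and 1 in females. Hydrocarbon synthesis genes held opposite extremes. The female elongase eloF lay at 0.625 to 0.877 CPM in males and 125, 197, 209 and 208 CPM in females, a ratio of 224.5 (168.8 to 305.6). bond, another elongase, lay at 129 to 154 CPM in males against 19.99, 32.7, 33.8 and 34.0 CPM (2.23 ± 0.21). Desat1, the shared desaturase, overlapped between the sexes (0.41 ± 0.16, edgeR adjusted p = 0.021; called higher in males without male replicate 3 and with DESeq2). Of 11 tested members 3 were higher in males and 0 in females.

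Whole bodies do not show which tissue transcripts came from, also for genes linked to the fat body. The gene fit, a female-enriched satiety signal, lay at 9.02, 21.6 and 23.2 CPM in males. In females it lay at 571, 731, 654 and 429.9 CPM (-5.05 ± 0.46, edgeR adjusted p = 1.8e-09). The takeout relative CG11854 lay at 48.5 to 62.6 CPM in males and 0.649 to 1.36 CPM in females (5.71 ± 0.22), and takeout itself, to, at 58.3 to 65.3 CPM against 20.7 to 36.8 CPM (0.98 ± 0.22). The lipid droplet protein gene Lsd-2 was higher in females (-1.30 ± 0.09). Fat storage and lipolysis genes were split, 5 of 20 higher in males and 6 in females. The lipase bmm lay at 354, 176 and 147 CPM in males and 127 to 154 CPM in females (0.67 ± 0.18), and the call rests on male replicate 1. Without it the difference was 0.19 (edgeR adjusted p = 0.080).

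Insulin and TOR genes were higher in females in 14 of 28 and in males in 7. Ilp8, a relaxin-like peptide, lay at 3.15 to 4.24 CPM in males and 52.7 to 72.5 CPM in females (-4.06 ± 0.29). The translation repressor Thor lay at 709.7, 386 and 256 CPM in males and 153, 147, 208 and 265 CPM in females (1.22 ± 0.23), with male replicate 1 highest and male replicate 3 inside the female range. The insulin receptor InR showed the same order of males, at 81.1, 63.1 and 48.1 CPM against 41.8 to 47.5 CPM (0.52 ± 0.12), and was not called without male replicate 1 (0.32, edgeR adjusted p = 0.016). ImpL2, an insulin-binding inhibitor, was higher in males, at 305 to 343 CPM against 109 to 157 CPM (1.19 ± 0.15).

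Gut enzymes were split by family. Of 40 tested, 14 were higher in females and 4 in males, with a median of -0.68. The protease genes Jon99Fi and Jon25Biii lay at 6.44 to 12.0 and 111 to 232 CPM in males, and at 383 to 581 and 902 to 1086 CPM in females (-5.85 ± 0.73 and -2.54 ± 0.44). The lysozyme LysB lay at 123 to 193 CPM against 524 to 689.8 CPM (-1.999 ± 0.25). Maltases went toward males. Mal-A7 lay at 853 to 925 CPM against 172 to 387 CPM (1.74 ± 0.37), and Mal-A1 at 3948 to 4195 CPM against 1022 to 2095 CPM (1.30 ± 0.42), although its call was lost when any library but female replicate 3 of the 7 was left out. Mal-B2 lay at 495, 219 and 165 CPM against 71.9 to 104 CPM (1.68 ± 0.24), and at 1.07 without male replicate 1. Near-identical copies exist in the Jonah and lysozyme families, so the split of reads between copies is uncertain.

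Small chaperones were mostly higher in males. Of 11 small heat shock protein genes 9 were higher in males and 2 in females, with a median of 1.74. Hsp22, the mitochondrial member, lay at 141, 255 and 277 CPM in males and 47.4, 57.7, 54.1 and 85.2 CPM in females (1.88 ± 0.26, edgeR adjusted p = 1.2e-06). Hsp23 lay at 57.7 to 75.6 CPM against 12.3 to 18.3 CPM (2.13 ± 0.16), and l(2)efl, an alpha-crystallin relative of muscle, at 314 to 365 CPM against 61.1 to 127 CPM (2.01 ± 0.18). CG4456 had the largest difference (2.71 ± 0.25). Its span on chromosome arm 3L (9372722 to 9374964) holds that of Hsp22 (9372931 to 9374964), so the division of reads between them is uncertain. They may not be separate results in the count above. The exceptions Hsp26 and Hsp27, both also expressed in the ovary, lay at 118 to 142 and 91.3 to 99.1 CPM in males and 568 to 755 and 353 to 461 CPM in females (-2.26 ± 0.17 and -2.04 ± 0.20).

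The larger chaperones were split, with 7 of 16 higher in males and 4 in females. Hsp68, an inducible Hsp70, lay at 74.1, 78.8 and 82.6 CPM in males and 5.41 to 11.4 CPM in females (3.23 ± 0.20). The Hsp90 gene Hsp83 lay at 883, 1237 and 1274 CPM in males and 1806 to 2295 CPM in females (-0.80 ± 0.12), and the heat shock factor Hsf at 57.4 to 61.2 CPM against 147 to 183 CPM (-1.42 ± 0.09). Of 16 genes of the endoplasmic reticulum stress response 5 were higher in males and 3 in females.

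Antimicrobial peptide genes were higher in males where called, 7 of 18 against 0 in females, with a median of 0.74. The 38.9% called compares with 71.7% of all tested features, of which 35.1% were higher in males. AttB lay at 252, 87.2 and 125 CPM in males and 37.3, 22.8, 7.17 and 6.40 CPM in females (3.07 ± 0.51), and at 3.73 without female replicate 1. CecA1, removed by the filter, lay at 91.5, 95.3 and 104 CPM in males and 9.92, 6.44, 1.32 and 1.09 CPM in females (4.36 ± 0.46). In both genes female replicates 1 and 2 were above replicates 3 and 4. BaraA2, which encodes Baramicin peptides, lay at 692 to 862 CPM against 260.4 to 467 CPM (0.96 ± 0.21). Drs, the antifungal drosomycin, lay at 117 to 179.5 CPM in males and 200.3 to 245 CPM in females and was not called (-0.69 ± 0.31, edgeR adjusted p = 0.049), while a fit of only the 28 °C libraries called it higher in females (edgeR adjusted p = 0.0027). The peptides took 0.532% of counts in males and 0.301% in females.

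Signalling genes of the Toll and Imd pathways were split, 7 of 29 higher in males and 11 in females. The receptor Tl and its ligand gene spz, both also used for patterning the embryo, were higher in females (-2.74 ± 0.13 and -1.45 ± 0.13). The recognition proteins PGRP-LC and PGRP-SA, which sense bacterial peptidoglycan, were higher in males (1.33 ± 0.12 and 1.37 ± 0.16). The amidase gene PGRP-SC1a, which dampens Imd, lay at 19.8 to 36.5 CPM in males and 117 to 149 CPM in females (-2.28 ± 0.71), a call that was lost without any 1 of the males or without female replicate 2 or 3. PGRP-SC2 lay at 104 to 214 CPM against 254 to 377 CPM and was not called (-1.01 ± 0.37, edgeR adjusted p = 0.017), but it was called higher in females with only the 28 °C libraries (edgeR adjusted p = 0.0042), with no filter (edgeR adjusted p = 0.0094) and without male replicate 1 (-1.34). In the JAK/STAT pathway the ligand upd1 lay at 11.7 to 12.3 CPM in males and 0.0907 to 0.276 CPM in females, a ratio of 69.73 (42.94 to 122). The receptor dome and the kinase hop were higher in females (-0.92 ± 0.10 and -1.53 ± 0.11), and the feedback inhibitor Socs36E in males (0.95 ± 0.24), a call lost without male replicate 1. Of 9 tested members 2 were higher in males and 5 in females.

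The 4 Turandot genes in the table, stress-induced secreted peptides, were all higher in females. TotA lay at 54.8, 173 and 98.1 CPM in males and 1652, 937, 899.9 and 3367 CPM in females (-3.98 ± 0.63, edgeR adjusted p = 7.0e-06). TotC lay at 13.2, 75.4 and 34.8 CPM against 1159, 580.4, 632 and 2503 CPM (-4.89 ± 0.85). TotM lay at 22.3, 41.1 and 13.5 CPM against 639.6, 240.3, 113 and 1379 CPM (-4.53 ± 0.74), and TotX at 7.25, 24.3 and 20.5 CPM against 131, 59.7, 27.7 and 268 CPM (-2.81 ± 0.57). Female replicate 4 was highest in each gene, and without it the differences of TotC, TotM and TotX were -4.25, -3.69 and -2.06, still called. Without male replicate 2 TotC was at -5.66. TotA (20871036 to 20871700) and TotC (20872988 to 20873580) lie side by side on chromosome arm 3R, with TotX further along the arm and TotM on 2L. The Turandot share was 0.0187% of counts in males and 0.355% in females (exact permutation p = 0.0571).

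The sexes at 28 °C were then set against the sexes at 18 and 24 °C, as the difference at 28 °C less the mean difference at the cooler temperatures. Of 9698 features 1157 were called (11.9%), 353 toward males (3.64%) and 804 toward females (8.29%). The balance of directions depends on the scaling between libraries: library totals gave 904 toward males and 442 toward females, DESeq2 gave 1026 and 588, and other reference libraries gave up to 1231 toward males and as few as 393 toward females. The main fit put the median of all features at -0.10 for this contrast. Above a size of 1 on the log2 scale the excess was toward females, with 341 against 62 features. It stayed so in each scaling, filter, block and left-out library tried, with 197 to 391 features toward females and 53 to 144 toward males. Without female replicate 1 at 28 °C the total was 2056, and without male replicate 2 it was 769.

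Turandot genes had the opposite sign at the cooler temperatures, with medians over the 4 genes of 2.57 at 18 °C and 1.74 at 24 °C against -4.25 at 28 °C. Over all features, 82.5% were called between the sexes at 18 °C (46.6% higher in males) and 74.1% at 24 °C (39.8% higher in males). TotX was called higher in males at both cooler temperatures, TotA and TotC at 18 °C but not at 24 °C, and TotM at 24 °C but not at 18 °C. At 18 °C, TotA had a mean of 73.3 CPM in males against 9.91 CPM in females, at 24 °C 145 against 59.5 CPM, and at 28 °C 109 against 1714 CPM. The difference from the cooler temperatures was largest in TotM (-6.65 ± 0.94) and TotC (-6.56 ± 1.001), and came to -6.07 ± 0.76 in TotA (edgeR adjusted p = 1.3e-05) and -5.16 ± 0.70 in TotX. Without female replicate 4 at 28 °C the values were -5.63 for TotM, -5.76 for TotC, -5.32 for TotA and -4.24 for TotX. Male means of TotA lay within 73.3 to 145 CPM over the temperatures, and each female library at 28 °C, from 899.9 CPM, was above the libraries of the other groups.

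**Figure D4:**
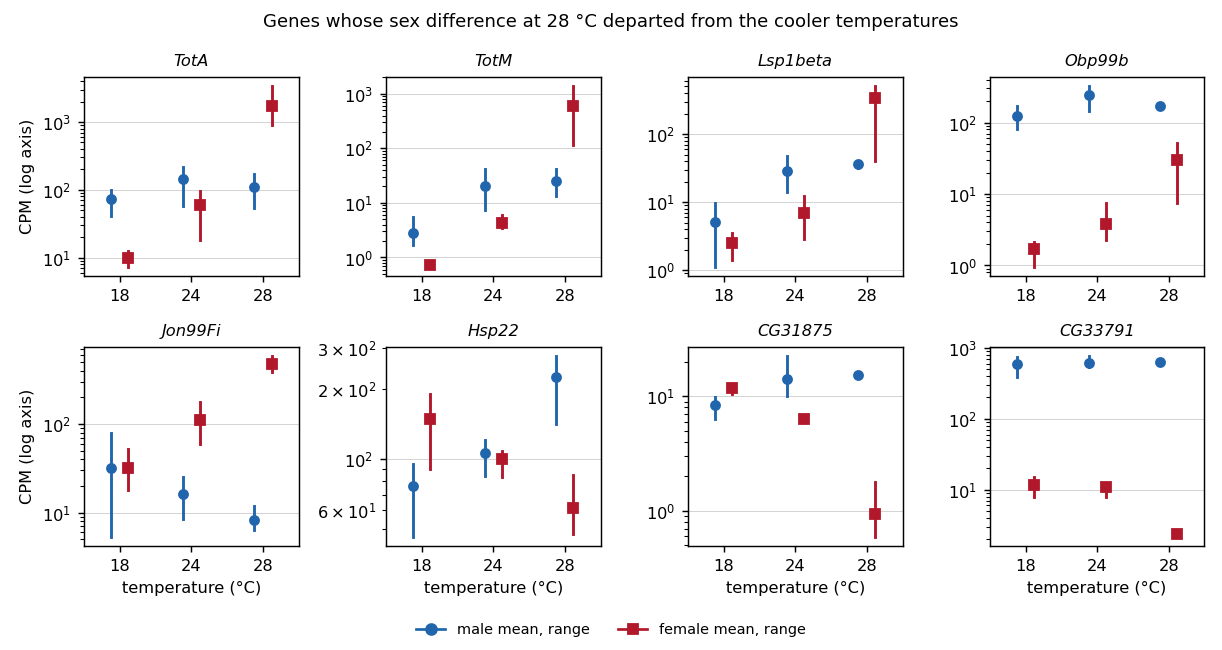
CPM on a log axis of 8 genes by temperature (x axis) in males (circles) and females (squares), with the mean as a point and the lowest and highest library as a line, from 4 libraries a group and 3 for males at 28 °C. TotA and TotM are highest in females at 28 °C, at 1714 and 593 CPM, Hsp22 has males at 224 and females at 61.1 CPM there, and CG31875 and CG33791 are lowest in females at 28 °C, at 0.935 and 2.38 CPM.

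Serum proteins departed in the same direction. Lsp2, a larval serum protein, was higher in males at the cooler temperatures, with means of 4.72 CPM against 0.392 CPM at 18 °C and 20.9 CPM against 0.262 CPM at 24 °C. At 28 °C it lay at 175, 108 and 129 CPM in males and 1385, 2082, 2357 and 348 CPM in females (-3.49 ± 0.66), and the difference from the cooler temperatures was -8.42 ± 0.98. Lsp1beta, which encodes a subunit of another larval serum protein, lay at 31.6 to 39.3 CPM in males and 341, 460.2, 505 and 40.8 CPM in females (-3.23 ± 0.66), against differences of 1.01 (not called) and 2.07 at 18 and 24 °C. Female replicate 4, the highest for Turandot genes, was the lowest female for both. Female means of Yp3 were 2351, 3098 and 12101 CPM from the coolest to the warmest temperature, and its sex difference at 28 °C departed by -2.70 ± 0.31. Yp1 and Yp2 were not called in this contrast (-1.64 ± 0.51 and -1.62 ± 0.58, edgeR adjusted p = 0.023 and 0.051). Females at 28 °C also had more fit transcript, 596 CPM against 30.9 and 49.3 CPM, a departure of -2.36 ± 0.48.

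A pair of odorant-binding protein genes had a smaller male excess at 28 °C or none. Obp99b had male means of 122 and 243 CPM at the 18 and 24 °C temperatures, with female means of 1.68 and 3.78 CPM, and lay at 160.3 to 181 CPM in males and 17.4, 43.4, 51.7 and 7.53 CPM in females at 28 °C. The difference of 2.51 ± 0.46 departed from the cooler temperatures by -3.58 ± 0.60. Obp99a was higher in males at the cooler temperatures (2.77 and 2.98) and not called at 28 °C (-0.41 ± 0.25, edgeR adjusted p = 0.14), a departure of -3.29 ± 0.33. Est-6 departed by -2.19 ± 0.35, dsx by -1.16 ± 0.15, CG4456 by -2.03 ± 0.31, Cyp309a2 by -2.97 ± 0.27, Cyp4p3 by -2.29 ± 0.22 and Cyp312a1 by -1.37 ± 0.21. In Est-6, dsx, CG4456, Cyp309a2, Cyp4p3 and Cyp312a1 the sexes at 28 °C were closer to each other than at the cooler temperatures, with males still higher. Reads of CG4456 may be divided with Hsp22, which departed toward males. The insulin-like peptide gene Ilp5 reversed, from 1.49 and 1.29 to -1.43 ± 0.32, at 0.752 to 1.02 CPM in males and 1.55 to 3.22 CPM in females.

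Of 40 gut enzymes 11 departed toward females and 0 toward males, against 8.29% and 3.64% of all features, and over the alternatives 9 to 14 departed toward females and 0 toward males. From the coolest to the warmest temperature, means of Jon99Fi were 31.7, 16.4 and 8.33 CPM in males and 32.2, 110.2 and 480.4 CPM in females, a departure of -4.46 ± 0.76. LysB and Jon25Biii departed by -2.49 ± 0.29 and -2.69 ± 0.50, from differences that were not called at either cooler temperature. Of the 18 tested antimicrobial peptide genes 0 departed in either direction. Among single immune genes, PGRP-SC1a departed by -4.80 ± 0.89 and PGRP-SC2 by -2.47 ± 0.45. pirk, an inhibitor of the Imd pathway, was higher in males by 2.23 and 2.20 at 18 and 24 °C and overlapped between the sexes at 28 °C (-0.34 ± 0.26), a departure of -2.56 ± 0.33. CecA1 was still higher in males at 28 °C, where the female mean was 4.69 CPM against 0.299 CPM at the coolest temperature, a departure of -3.39 ± 0.64. Send2, a serine protease gene of the spermatheca, lay at 2.13 to 4.62 CPM in females and 0.0481 to 0.355 CPM in males, a departure of -3.93 ± 0.69 that rests on few counts. Of 62 respiratory chain genes 12 departed toward females and 0 toward males, a count that depends on the setting. It was 4 with library totals, 1 without female replicate 4 at 28 °C, 24 without female replicate 3 at 24 °C and within 1 to 24 over the alternatives, with up to 1 toward males.

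Fewer named genes departed toward males. CG31875 lay at 15.6, 15.6 and 14.7 CPM in males and 1.77, 0.590, 0.717 and 0.659 CPM in females at 28 °C (4.01 ± 0.29), against means of 8.45 and 11.8 CPM at 18 °C, a departure of 3.67 ± 0.33. It overlaps SoYb, a gene of the piRNA pathway, and without female replicate 1 the departure was 4.44. CG33791 departed by 2.34 ± 0.27, with female means of 11.8, 10.9 and 2.38 CPM from the coolest to the warmest group and male means of 585, 613 and 637 CPM. CG7886 departed by 1.83 ± 0.41, and CG11854 by 1.90 ± 0.27. The sex difference of CG11854 was 2.12 at 18 °C and 5.49 at 24 °C against 5.71 at 28 °C, with male means of 4.96, 54.2 and 56.4 CPM, so only 18 °C stood apart. Hsp22 was lower in males at 18 °C (-0.96), not called at 24 °C (0.08) and higher at 28 °C, a departure of 2.32 ± 0.31 (edgeR adjusted p = 3.2e-05). CG4456, whose span holds Hsp22, departed by -2.03. Whether the division of reads between them changed with temperature was not tested. sad, a P450 of ecdysone synthesis, lay at 5.05 to 6.30 CPM in males and 0.590 to 1.51 CPM in females, a departure of 2.31 ± 0.40. CG10725 was higher in females at the cooler temperatures (-1.43 and -1.95) and not called at 28 °C (0.49 ± 0.29), a departure of 2.18 ± 0.35. The flight muscle actin Act88F departed by 1.58 ± 0.29, from -1.13 and 0.29 to 1.16 ± 0.24, and upd1 by 2.04 ± 0.44.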

How the data were processed

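RNA-seq libraries of pooled whole virgin w1118 flies were used, 3 of males and 4 of females at 28 °C, with 16 libraries at 18 and 24 °C in the same model. RNA was extracted with TRIzol and selected for poly-A, cDNA was made with random primers, and sequencing was on BGISEQ-500. Whether strand was kept is not known from this. The authors cleaned reads with SOAPnuke, assembled transcripts with HISAT, StringTie and Cufflinks, aligned with Bowtie2 to known and predicted transcripts of dm6, and counted with RSEM; versions are not given in the sources used here. The deposited values are RSEM expected counts, of which 23.2% were not whole, before any normalization. Probabilistic assignment by RSEM can divide reads among paralogs and overlapping genes.

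Values were rounded before testing. The filter asked for 0.5 CPM in each library (9698 of 11152 features), TMM factors scaled the libraries (the default reference was female replicate 4 at 28 °C), and edgeR's quasi-likelihood method was applied to a model of 6 group means over all 23 libraries. The study's edgeR comparison, filter and threshold of 0.01 were kept, and its Poisson model was replaced because it ignores spread between replicates. P-values were adjusted with Benjamini-Hochberg over all tested features. CPM are relative to the TMM-scaled library size of the fit, while shares are of all counts. The same test was run with every feature kept. Versions were edgeR 4.0.16 and DESeq2 1.42.0 in R 4.3.3, and scipy 1.17.1, pandas 2.3.3, numpy 2.4.6 and matplotlib 3.10.9 in Python 3.11.15. Symbols and positions were taken from RefSeq (dm6), where 11073 feature IDs matched.

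The common biological coefficient of variation was 0.141. On counts simulated for 9698 genes, edgeR recovered 85 of 100 genes changed 2-fold between the sexes at 28 °C and 47 of 100 changed 1.5-fold, with 1 false call. For the difference from the cooler temperatures it recovered 72 and 30 of 100, with 0 false calls. In the simulation no other gene differed between groups, whereas 71.7% of tested features were called between the sexes at 28 °C. The false calls of the simulation therefore do not measure error in these data. The members and the gene lists were chosen with earlier results of these data known. Named genes are the 10 largest differences in each direction among called features whose libraries do not overlap, the 5 highest genes in each direction among features the filter removed, the 5 largest in each direction for the difference from the cooler temperatures, and examples from the lists with their defining genes, of which the examples were chosen with their values in view. Lists are described by counts and medians, with no test. Alternatives were DESeq2, library totals, the median shifted to 0, each library as TMM reference, other filters, a threshold of 0.05, a block for the replicate number, only the 28 °C libraries, and leaving out each library. Intervals of ratios are exact Poisson intervals at 95% for counting error only.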

Additional observations from a re-analysis of the deposited data

Results flagged for a closer look

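Among the groups of 4 female values at 28 °C, 15 held a library with a wide gap to the others (8.93% of the groups tested). Female replicate 1 was that library in 14. All groups come from the same 4 libraries, and some genes were chosen with their values in view. The share can therefore not be set against a chance rate for independent groups. Female replicate 1 stood apart in both directions. It was highest in otu (431.5 CPM), bcd (143.9 CPM), twe (121.5 CPM), msl-3 (67.7 CPM), Hsp26 (754.7 CPM), CycB (2482 CPM), dco (449.1 CPM), CG31875 (1.77 CPM) and the ovary germline share (0.868% of counts). It was lowest in Est-6 (100.8 CPM), eloF (124.6 CPM), bond (19.99 CPM), ImpL2 (109.3 CPM) and SdhD (55.8 CPM). Female replicate 4 was the highest in msl-2 (11.8 CPM).

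The log2 sex difference at 28 °C departed from its mean at 18 and 24 °C in 45 of 152 named genes, by edgeR's test of that difference, 13 toward males and 32 toward females. Over all tested features 11.9% departed (3.64% and 8.29%). Some genes were named for the size of this same difference or with their values in view, so the count describes the named genes only. Temperature and age cannot be told apart in this contrast. Toward males the departures were 3.67 (CG31875), 2.34 (CG33791), 2.32 (Hsp22), 2.31 (sad), 2.18 (CG10725), 2.04 (upd1), 1.90 (CG11854), 1.83 (CG7886), 1.58 (Act88F), 0.90 (orb), 0.84 (bol), 0.73 (piwi) and 0.63 (InR).

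Toward females the largest were -8.42 (Lsp2), -6.65 (TotM), -6.56 (TotC), -6.07 (TotA), -5.16 (TotX), -4.80 (PGRP-SC1a), -4.77 (Lsp1beta), -4.46 (Jon99Fi), -3.93 (Send2), -3.58 (Obp99b), -3.39 (CecA1) and -3.29 (Obp99a). Between -3 and -2 lay Cyp309a2 (-2.97), Ilp5 (-2.82), Yp3 (-2.70), Jon25Biii (-2.69), pirk (-2.56), LysB (-2.49), PGRP-SC2 (-2.47), fit (-2.36), Cyp4p3 (-2.29), Est-6 (-2.19) and CG4456 (-2.03). CG4456 and Hsp22 overlap and departed in opposite directions, with the division of their reads uncertain. Smaller departures were -1.64 (lectin-46Cb), -1.37 (Cyp312a1), -1.16 (dsx), -1.002 (Hsp23), -0.94 (Hsp27), -0.82 (lncRNA:roX1), -0.71 (Cyt-c-p), -0.48 (COX4) and -0.43 (Clamp). Of the 41 of these genes that passed the filter, 32 stayed called under each alternative run. The calls of CG7886, lectin-46Cb, Hsp23, Hsp27, lncRNA:roX1, piwi, InR, COX4 and Clamp were lost under at least 1.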

How the results depend on the processing

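The count of called features at 28 °C moved between 6677 and 7938 over the scalings, filters, samples and threshold tried, and the replicate block gave 7058 (3450 and 3608). With no filter it was 7595 to 8691, and 8022 with the block. Leaving out 1 library gave 6537 to 7101 (3160 to 3573 toward males, 3269 to 3617 toward females), and 7438 to 8059 with no filter (3643 to 3984, 3777 to 4080). Other reference libraries shifted the median of all features by -0.159 to 0.111. For the departure from the cooler temperatures, a threshold of 0.05 gave 2240 features in place of 1157 (683 toward males, 1557 toward females). Toward males DESeq2 gave 1026, library totals 904 and the highest reference library 1231, and toward females library totals gave 442 and the lowest reference library 393. Leaving out 1 library gave 769 to 2056 (227 to 1585 and 339 to 907). Without female 18 °C replicate 1, 2 or 4, female 24 °C replicate 1 or 4, or female 28 °C replicate 4, the count toward males was 1016 to 1180 and toward females 339 to 385, and without female 28 °C replicate 1 they were 1585 and 471. Without male 28 °C replicate 1 the count toward males was 227, and without male 28 °C replicate 2 the count toward females was 530. The reference library changes with the library left out, and the cause was not tested further.

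Same-numbered males and females correlated by 0.172, 0.0817 and 0.0515 in their deviations. Male replicate 1 correlated best with female replicate 1, and male replicates 2 and 3 with female replicate 4 (0.251 and 0.0717). With 3 male libraries these values do not decide whether the numbers pair the samples. The block gave 1290 departures (348 and 942) and 20 lists with a median above 0, as without it. Among named genes it changed 1 call at 28 °C, that of twe, to higher in females (-0.53, edgeR adjusted p = 0.0056).

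As shares of tested features, the testis difference was 0.165 percentage points in place of 0.569 and the accessory gland difference 0.0452 in place of 0.0684, since the filter removes most of those genes. Leaving out 1 library gave -4.63 to -4.43 for yolk, 0.552 to 0.593 for testis, 0.0609 to 0.0773 for accessory gland, -5.83 to -5.48 for the X chromosome and -0.400 to -0.212 for Turandot, and 19 to 23 lists of 37 with a median above 0. Medians of the cytoplasmic ribosomal, fat storage, sex determination and endoplasmic reticulum stress lists changed sign under some scalings. Of 143 called named genes 133 stayed called under each alternative. twe, PGRP-SC2, Drs, Desat1 and tra, not called, were called under at least 1. Trace values limit ratios to their counting intervals.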

Other observations

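CG45766 was the 1 tested feature that the RefSeq annotation places on the Y chromosome. It lay at 289.8, 271.2 and 245.5 CPM in males and 90.1, 119.8, 110.8 and 111.4 CPM in females at 28 °C (1.32 on the log2 scale), although females carry no Y chromosome. The source of the female reads was not tested.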
